A study of Mus musculus with 2 samples.

Results

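Transcripts of 43 genes of cholesterol and fatty acid metabolism were measured in activated regulatory T cells of the mouse. The genes were chosen by symbol, as 43 of the 55536 genes in the deposited GENCODE M21 gene tables, and every symbol matched 1 row. They comprise 5 regulators of sterol-responsive transcription, 15 enzymes of sterol synthesis, 4 genes of the liver X receptors and sterol efflux, 10 enzymes that make or modify fatty acids, 2 genes of fatty acid uptake and binding, and 7 enzymes of mitochondrial beta-oxidation. The RNA was polyadenylated and came from 1 biological sample, a male mouse aged 4 months of the strain Foxp3CreERT2 x Rosa26YFP. Its 2 sequencing libraries, technical replicates 1 and 2, form 1 group, so that levels within this state could be described and no second condition was available for comparison. The Foxp3CreERT2 allele drives a tamoxifen-inducible Cre recombinase from the Foxp3 locus, and the Rosa26YFP allele is a yellow fluorescent reporter. Both libraries carry both alleles. Per the labels, these primary cells derive from bone marrow blood-forming cells. The sources used here do not say how the cells were collected or activated.

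Animal cells make cholesterol from acetyl-CoA through mevalonate, isoprenoids, squalene and lanosterol. When membrane sterol is low, Scap escorts the sterol regulatory element-binding proteins from the endoplasmic reticulum to the Golgi, where they are cleaved and freed to activate these genes, and the Insig proteins retain the complex when sterol is high. Liver X receptors sense oxidised sterols and activate sterol export. In T cells, lipid synthesis supplies membranes during growth and the mevalonate pathway also feeds protein prenylation, while beta-oxidation of fatty acids in mitochondria is a fuel route much studied in regulatory T cells.

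The estimated gene reads numbered 15076048 in library 1 and 14635787 in library 2. The labelled cell type was compared with marker genes. All 6 T cell markers and all 6 regulatory T cell markers reached a mean of 1 TPM (a transcript level, made by scaling reads by transcript length to a fixed sum in each library), and Foxp3 had 23.82 TPM in library 1 and 20.91 TPM in library 2. The 6 B cell markers summed to 717 and 803 TPM, of which Ighm gave 679 and 760 TPM and Cd79b 36.26 and 40.72 TPM. Lower B cell markers were Cd79a with 1.26 and 1.70 TPM, Ms4a1 with 0.67 and 0.39 TPM and Pax5 with 0 and 0.08 TPM. Markers of monocytes, dendritic cells, adipocytes, erythroid cells, platelets, neutrophils, endothelium and hepatocytes summed to between 0 and 17.1 TPM per list and library. The part of any of these cells in the levels below was not tested. In bulk RNA, fewer cells of a type and less RNA per cell cannot be told apart. All means and SDs are over the 2 technical libraries (n = 2). The p-values set the difference between these libraries against counting error alone, and they measure nothing between animals.

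Most of the lipid genes were expressed. A level of 1 TPM was reached in each library by 39 of the 43 genes (90.7%), against 46.2% of 22028 protein-coding genes. A level of 10 TPM was reached by 32 genes (74.4%), against 29.5% of protein-coding genes. Only Elovl5 reached 100 TPM in both libraries (2.33% of the 43 genes), against 5.25% of protein-coding genes. The 4 genes with a mean under 1 TPM were Nr1h3, Scd1, Fads2 and Cd36. The median log2(TPM + 1) of the 43 genes was 4.79 ± 0.09 (SD, n = 2 libraries), against 0.67 for all protein-coding genes and 4.25 for the 10171 of them that reached 1 TPM in each library. By role, the medians were 5.06 ± 0.04 for beta-oxidation, 4.93 ± 0.06 for sterol synthesis, 4.69 ± 0.02 for the sterol regulators and 3.90 ± 0.02 for fatty acid synthesis. They were lower for the liver X receptors and efflux genes, at 3.41 ± 0.07, and for uptake and binding, at 2.73 ± 0.06, since each of those short lists holds a gene near 0.

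**Figure D1:**
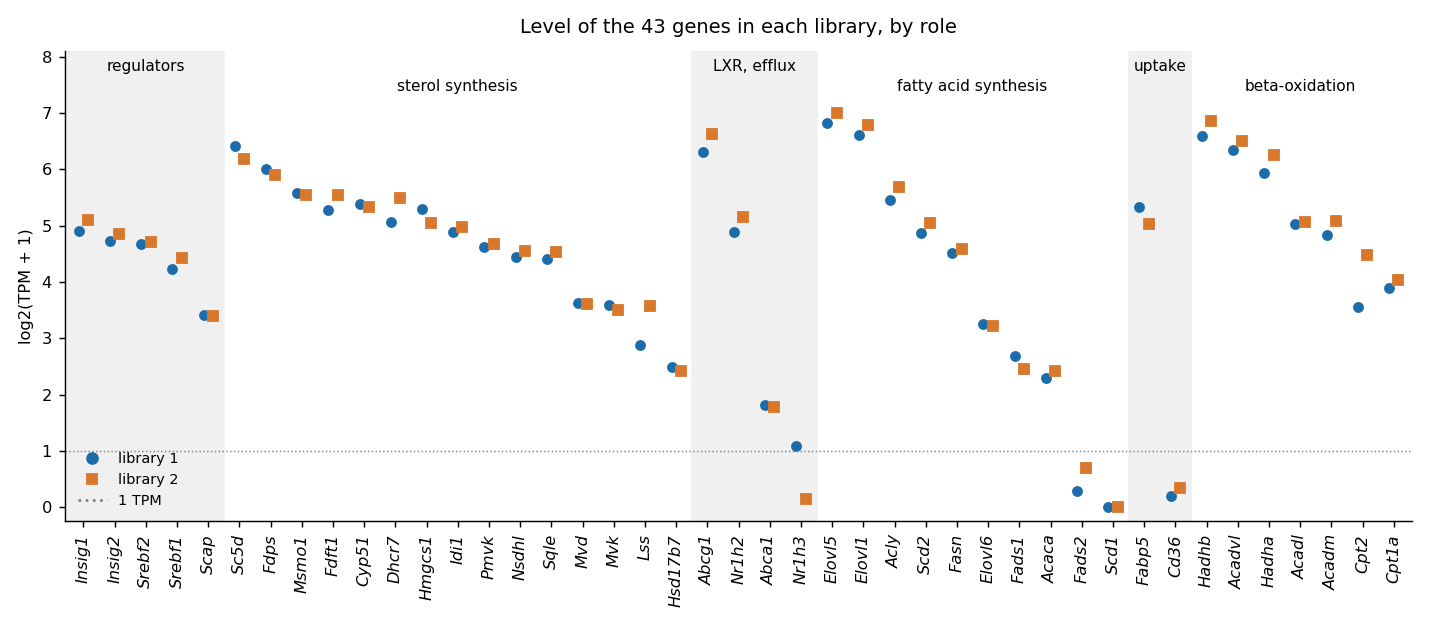
Level of each of the 43 genes as log2(TPM + 1), with library 1 as circles and library 2 as squares, grouped by role and ordered by mean within a role; the dotted line marks 1 TPM. The sterol synthesis and beta-oxidation genes all lie above that line, while Nr1h3, Fads2, Scd1 and Cd36 are near or below it.

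All 5 sterol regulators were expressed, with means from 9.63 TPM for Scap to 31.0 TPM for Insig1. Insig1, which retains the Scap complex in the endoplasmic reticulum and is itself induced by the pathway, was the highest with 28.84 TPM in library 1 and 33.17 TPM in library 2. Insig2, its less sterol-responsive paralog, had 25.56 and 27.97 TPM. The gene of the factor that acts mainly on cholesterol synthesis, Srebf2, had 24.67 and 25.06 TPM. That of the factor that acts mainly on fatty acid synthesis, Srebf1, had 17.86 and 20.53 TPM. Scap, the escort, was the lowest with 9.72 and 9.55 TPM. The libraries' ranges of neighbours in this order did not overlap.

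Within each library Srebf2 exceeded Srebf1 in TPM summed over all transcripts of the gene. The ratio was 1.38 in library 1, with an exact 95% interval for counting error of 1.24 to 1.53, and 1.22 in library 2, with an interval of 1.1 to 1.35. On the reads of the deposited GENCODE M4 table, scaled by the same lengths, the mean log2 ratio was -0.30 in place of 0.38, so the order of this pair depends on the table. Insig1 exceeded Insig2 by 1.13 in library 1 (interval 1.01 to 1.26) and by 1.19 in library 2 (interval 1.06 to 1.33). The order of Insig1 and Insig2 also turned on the M4 reads, where the mean log2 ratio was -2.30 in place of 0.21. Over the longest coding transcripts the mean log2 ratio of Insig1 to Insig2 was 0.96 in place of 0.21.

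All 15 enzymes of sterol synthesis on the list were expressed, from the start of the mevalonate pathway to the last reductase. They summed to 471 TPM in library 1 and 474 TPM in library 2, and 13 of them had 10 TPM or more in both. Sc5d (chr9:42251595-42264256, minus strand, mm10), which introduces a double bond late in the pathway, was the highest with 84.36 and 71.37 TPM. Hsd17b7, the reductase of the demethylation complex, was the lowest with 4.65 and 4.37 TPM. The genes of this pathway thus spread more widely than the libraries did.

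In the mevalonate segment, Hmgcs1, which condenses the pathway's starting unit, had 38.56 TPM in library 1 and 32.15 TPM in library 2. The kinases that follow were lower, with 11.13 and 10.29 TPM for Mvk and 23.77 and 24.59 TPM for Pmvk. The decarboxylase Mvd had 11.40 and 11.29 TPM. Idi1, which isomerises the isoprenoid unit, had 28.60 and 30.40 TPM. Fdps, which makes farnesyl diphosphate for both sterols and prenylation, was the second highest of the pathway with 63.33 and 58.55 TPM.

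In the sterol-committed segment, Fdft1, the squalene synthase, had 37.97 TPM in library 1 and 45.79 TPM in library 2. The epoxidase Sqle had 20.27 and 22.26 TPM, and Lss, which closes the ring to lanosterol, had 6.41 and 10.93 TPM. The levels of Lss did not overlap those of either enzyme that acts before it, and both libraries placed it below them. The demethylase Cyp51 had 40.60 and 39.21 TPM and the oxidase Msmo1 47.10 and 46.04 TPM. Nsdhl, the decarboxylating dehydrogenase of the X chromosome, had 20.78 and 22.58 TPM. The final reductase Dhcr7 had 32.42 and 43.81 TPM. In the order of means, 5 of 14 pairs of neighbours overlapped between libraries. These were Fdft1 with Cyp51, Cyp51 with Dhcr7, Dhcr7 with Hmgcs1, Nsdhl with Sqle and Mvk with Lss.

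Promoter windows from RefSeq, of 250 bases before to 50 bases after each annotated start on GRCm38.p6, were matched by symbol for 35 of the 43 genes and for 12 of the 15 sterol synthesis genes. No entry was matched for Abcg1, Fabp5, Fads1, Fdft1, Fdps, Scd1, Scd2 and Sqle. A gene with several windows was counted for a motif if any of its windows matched. The CCAAT box (CCAAT, either strand) is the motif bound by NF-Y, which acts with the sterol regulatory element-binding proteins. It was found in all 12 sterol synthesis genes, and in 12 of the 15 windows of these genes. The box was found in 22 of the 35 genes (62.9%), against 41.1% of 27025 genes with a window. Among the 8081 of those genes that were expressed here, the share was 43.9%. The sterol element TCACNCCAC on either strand was found in Hmgcs1 alone, against 1.44% of all genes and 1.37% of expressed ones. The E-box CACGTG was found in 7 of the 35 genes, against 8.09% of all and 12.2% of expressed genes. The GC box GGGCGG on either strand was found in 26 of the 35 (74.3%), against 38.2% of all and 69.6% of expressed genes. These matches are descriptions of letters in a window and no binding was measured.

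The stretches around the box nearest the start are shown for the 5 sterol synthesis genes of highest level with a window, as the gene strand reads 5′ to 3′. Capitals mark the CCAAT box, written ATTGG where it lies on the opposite strand, and in Hmgcs1 also the sterol element, whose letters overlap no CCAAT box. The first base of the box lies 24 bases before the RefSeq start of Sc5d, 55 before that of Msmo1, 29 before that of Cyp51, 49 before a start of Dhcr7 that lies inside the annotated gene, and 45 before that of Hmgcs1, where the sterol element lies 137 bases before the start. The positions are chr9:42264301-42264354 for Sc5d, chr8:64733617-64733645 for Msmo1 and chr5:4104710-4104738 for Cyp51, all on the minus strand, and chr7:143830153-143830181 for Dhcr7 and chr13:119690184-119690340 for Hmgcs1 on the plus strand. Those of Msmo1, Cyp51 and Dhcr7 lie within exons annotated in GENCODE M21, and those of Sc5d and Hmgcs1 do not. The RefSeq starts used for Msmo1 and Cyp51, like that of Dhcr7, lie inside the annotated genes.
Sc5d: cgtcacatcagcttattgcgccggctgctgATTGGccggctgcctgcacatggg
Msmo1: gagtggggcggaCCAATtacgacaggcga
Cyp51: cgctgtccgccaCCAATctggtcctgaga
Dhcr7: aatccacttccgATTGGtcgtctgtgacc
Hmgcs1: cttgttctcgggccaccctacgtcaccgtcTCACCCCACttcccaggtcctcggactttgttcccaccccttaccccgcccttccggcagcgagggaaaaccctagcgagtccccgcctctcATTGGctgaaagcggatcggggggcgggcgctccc

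Of the sterol sensors and exporters, a single member of each related pair carried nearly all of the signal. Abcg1 (chr17:31057675-31117988, plus strand), a transporter that exports sterol to lipoproteins, had 78.32 TPM in library 1 and 97.65 TPM in library 2. Abca1, which exports sterol and phospholipid to lipid-poor apolipoproteins, had 2.54 and 2.43 TPM. The Abcg1 to Abca1 ratio was 30.8 (interval 27.5 to 34.6) in library 1 and 40.2 (interval 35.8 to 45.4) in library 2. On the M4 reads the mean log2 ratio was 2.68 in place of 5.14. Nr1h2, the widely expressed liver X receptor beta, had 28.70 and 34.48 TPM. Nr1h3, liver X receptor alpha, which is typical of macrophages, liver and fat, had 1.13 and 0.11 TPM.

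The 2 libraries disagreed on Nr1h3, which rested on 25 reads in library 1 and 2 reads in library 2. Its log2 ratio of library 1 over library 2 was 3.31 with a counting SE of 0.96, and the exact binomial test gave a Benjamini-Hochberg adjusted p of 1.2e-04 over 17271 genes. In the M4 table it had 17 reads in library 1 and 4 in library 2, and the difference was not called there. The Nr1h2 to Nr1h3 ratio was accordingly 25.5 (interval 17.1 to 39.7) in library 1 and 314 (interval 86.5 to 2596) in library 2, and on the M4 reads the mean log2 ratio was 5.48 in place of 6.48. The 6 monocyte and macrophage markers summed to 3.85 TPM in library 1 and 6.25 TPM in library 2. Of these, Cd68 had 2.49 and 2.57 TPM, Itgam 0.71 and 0.45 TPM, Adgre1 0 and 0.08 TPM, and Cd14 0 in both. Lyz2, with 0.61 and 2.83 TPM, and Csf1r, with 0.04 and 0.32 TPM, were called higher in library 2. The 4 hepatocyte markers summed to 0.36 and 0 TPM, with Apoa1 and Serpina1c at 0 in both, and the 4 adipocyte markers to 0.20 and 0.84 TPM. The part of these cells in the Nr1h3 values was not tested.

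Fatty acid synthesis and elongation genes spanned the widest range of any role. Elovl5 (chr9:77917364-77984519, plus strand), which elongates polyunsaturated acids, was the highest of all 43 genes with 112.75 TPM in library 1 and 127.64 TPM in library 2. Elovl1, which elongates saturated acids to very long chains for sphingolipids, had 97.43 and 109.46 TPM. Elovl6, which elongates palmitate, had 8.57 and 8.38 TPM. The ratio of Elovl5 to Elovl6 was 13.2 (interval 11.7 to 14.8) in library 1 and 15.2 (interval 13.4 to 17.3) in library 2. That of Elovl1 to Elovl6 was 11.4 (interval 10.1 to 12.9) and 13.1 (interval 11.4 to 14.9). The mean log2 ratio of Elovl1 to Elovl6 was 5.31 on the M4 reads in place of 3.61, and that of Elovl5 to Elovl6 was 4.78 over the longest coding transcripts in place of 3.82.

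The enzymes that make the acyl chain followed. Acly, which cleaves citrate to cytosolic acetyl-CoA, had 43.21 TPM in library 1 and 50.84 TPM in library 2. Acaca, the carboxylase that commits acetyl-CoA to synthesis, had 3.90 and 4.35 TPM. The multifunctional synthase Fasn had 21.76 and 23.18 TPM. The carboxylase was thus below both the enzyme before it and the enzyme after it in each library.

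Of the desaturases, Scd2 was expressed and Scd1 had no reads. Scd2, a stearoyl-CoA desaturase best known from brain, had 28.19 TPM in library 1 and 32.26 TPM in library 2. For Scd1, the main isoform of liver and fat, 0 reads allow a level of up to 0.126 TPM in library 1 and 0.133 TPM in library 2, at 3 reads each. Scd2 was therefore at least 224-fold higher than Scd1 in library 1 and at least 242-fold higher in library 2. As a mean log2 value this bound was 7.86, and it was 4.63 on the M4 reads and 9.18 over the longest coding transcripts. Of the 50-base windows of Scd2 transcripts, 3.97% also occur in another gene, mainly Scd1. The front-end desaturase Fads1 had 5.45 and 4.47 TPM, and Fads2, which acts at the preceding step, had 0.22 and 0.63 TPM from 5 and 11 reads. The ratio of Fads2 to Fads1 was 0.041 (interval 0.013 to 0.097) in library 1 and 0.14 (interval 0.069 to 0.26) in library 2.

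Of the genes of uptake and binding, Fabp5 carried the signal. Fabp5, a cytosolic fatty acid-binding protein, had 39.23 TPM in library 1 and 31.62 TPM in library 2. Cd36, a surface receptor for long-chain fatty acids, had 0.15 and 0.27 TPM from 3 and 8 reads, which lies near the limit of 3 reads. Their ratio was 257 (interval 87.4 to 1251) in library 1 and 116 (interval 58.4 to 271) in library 2, intervals that overlap. The mean log2 ratio of 7.43 became 6.57 on the M4 reads and 8.25 over the longest coding transcripts. The adipocyte markers given above include another fatty acid-binding protein, Fabp4, with 0.10 and 0 TPM.

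All 7 genes of mitochondrial beta-oxidation had 10 TPM or more in both libraries. Cpt1a, which forms acylcarnitines for import, had 13.86 TPM in library 1 and 15.47 TPM in library 2. Cpt2, which reverses that step inside the mitochondrion, had 10.71 and 21.38 TPM. These carnitine enzymes were the lowest of the role and overlapped between libraries. Their ratio ran in opposite directions, with Cpt1a over Cpt2 at 1.29 (interval 1.12 to 1.5) in library 1 and 0.72 (interval 0.64 to 0.83) in library 2, so they could not be ordered. The mean log2 ratio of -0.05 became -1.25 on the M4 reads and 0.29 over the longest coding transcripts. The Cpt2 reads differed less than its TPM, with 262 and 342 reads, because the model gave it an effective length of 1972 bases in library 1 and 1367 bases in library 2.

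The acyl-CoA dehydrogenases, which catalyse the initial oxidation for chains of different length, were all higher. Acadvl, for very long chains, had 80.75 TPM in library 1 and 89.96 TPM in library 2. Acadl, for long chains, had 31.57 and 32.72 TPM, and Acadm, for medium chains, had 27.56 and 33.00 TPM. The ratio of Acadvl to Acadm was 2.93 (interval 2.67 to 3.23) in library 1 and 2.73 (interval 2.48 to 3.01) in library 2. Acadl and Acadm overlapped between libraries, with ratios of 1.15 (interval 1.03 to 1.28) and 0.99 (interval 0.88 to 1.11). Of the exon bases of Acadvl, 42.9% overlap Dvl2 on the opposite strand. The sources used here do not state strandedness, so reads of these overlapping genes cannot be told apart, although Dvl2 was assigned 155 and 112 reads beside 1831 and 1983 for Acadvl.

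Hadha and Hadhb encode the alpha and beta subunits of the trifunctional protein, which completes the cycle for long chains. Hadhb had 96.03 TPM in library 1 and 115.13 TPM in library 2, the highest of the role, and Hadha had 60.50 and 75.59 TPM. Hadha was below Hadhb in both libraries, with ratios of 0.63 (interval 0.59 to 0.67) and 0.66 (interval 0.62 to 0.70). Counted over the longest coding transcript of each gene, the mean log2 ratio was -1.77 in place of -0.64. On the M4 reads it was 3.00, where the M4 table assigned Hadhb 118 and 137 reads, against 2373 and 2716 in M21. The order of the subunits therefore holds for the M21 table only.

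The genes of these subunits lie head to head on chromosome 5, Hadha on the minus strand (chr5:30118304-30155162) and Hadhb on the plus strand (chr5:30155248-30184593). The RefSeq starts lie 272 bases apart, and 85 bases separate the M21 genes. That stretch, chr5:30155163-30155247 on the plus strand, is shown because both genes are read away from it, with GC boxes (GGGCGG) in capitals. No CCAAT box was found in the window of either gene.
Stretch between Hadha and Hadhb: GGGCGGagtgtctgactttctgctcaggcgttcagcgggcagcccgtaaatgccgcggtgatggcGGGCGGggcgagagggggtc

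**Figure D2:**
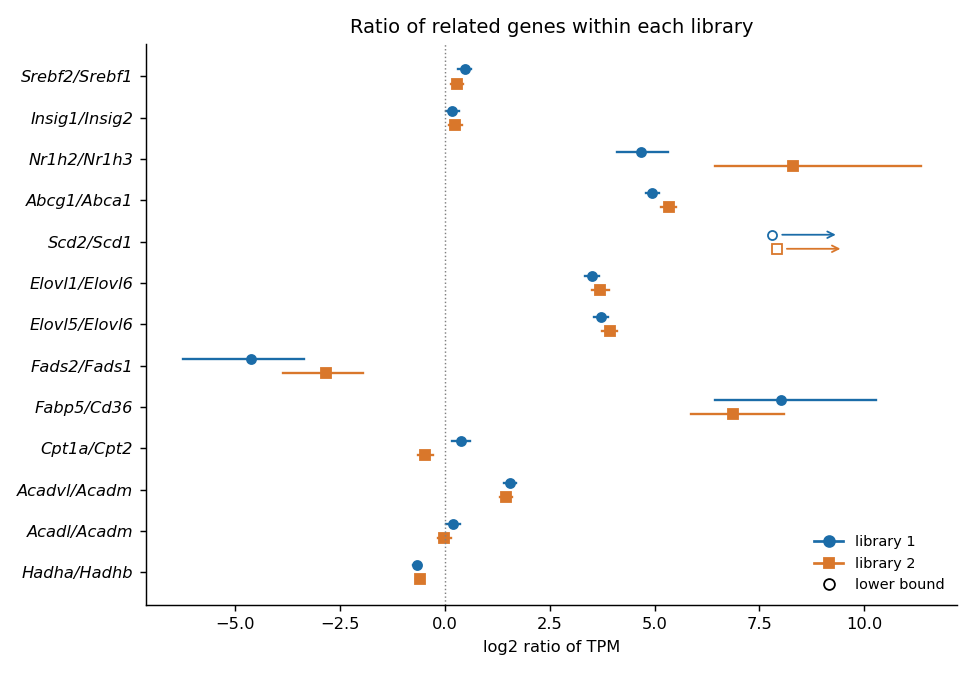
Log2 ratio of TPM between 13 pairs of related genes within library 1 (circles) and library 2 (squares), with lines for the exact 95% interval of counting error; open symbols with arrows are lower bounds from 3 reads. Nr1h2 over Nr1h3, Abcg1 over Abca1, Scd2 over Scd1 and Fabp5 over Cd36 are far to the right in both libraries, while Cpt1a over Cpt2 lies on opposite sides of 0.

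Another 75 genes of the same pathways were examined beside the 43. Of these, 48 (64.0%) had 1 TPM or more in both libraries and 35 had 10 TPM or more. Among 18 other sterol genes, 15 reached 1 TPM in both, the highest being Lbr, a sterol reductase and nuclear envelope protein, with 305 TPM in library 1 and 286 TPM in library 2. Ch25h and Cyp27a1, which make the oxysterols 25- and 27-hydroxycholesterol, had no reads, and Soat2 was the lowest with reads at 1.16 and 0.83 TPM. Among 17 other fatty acid synthesis genes 7 reached 1 TPM in both, led by Tecr, a reductase of the elongation cycle, with 320 and 315 TPM. No reads fell on Elovl2, Elovl3, Hacd1, Scd3 or Me1. Among 19 genes of uptake, activation and storage 10 reached 1 TPM in both, led by Acsl5, which activates long-chain acids, with 74.1 and 67.8 TPM, while Fabp1 and Fabp2 had no reads. Among 21 other beta-oxidation genes 16 did, led by Etfb, an electron carrier subunit, with 178 and 156 TPM. Ppargc1a, a coactivator of mitochondrial genes, was the lowest of that list with 0 and 0.04 TPM.

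Transcripts were examined for the 35 genes with 5 TPM or more and more than 1 annotated transcript. The same transcript led by share of the gene's TPM in both libraries for 31 genes, and for 28 it was also protein-coding. By share of reads the leading transcript was protein-coding for 34. The exception was Hadha, whose leading transcript Hadha-201 is annotated as a processed transcript and took 75.3% of the gene's reads in library 1 and 78.3% in library 2. Transcripts without a coding annotation took 91.8% and 91.4% of Hadha reads. For Srebf2 a retained-intron transcript, Srebf2-205, led by TPM with 50.7% and 55.6%, while the coding Srebf2-201 led by reads. For Fasn the retained-intron transcript Fasn-203 led with 38.0% and 40.4% of TPM, although noncoding transcripts held 13.3% and 15.4% of Fasn reads. These shares are model estimates from reads of 50 bases.

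The leading transcript differed between libraries for 4 genes. For Fdft1 it was Fdft1-202, annotated for nonsense-mediated decay, with 49.7% of TPM in library 1, and the coding Fdft1-201 with 49.4% in library 2. For Lss it was Lss-205 with 30.8% and Lss-202 with 34.2%, both noncoding and short, whereas the coding Lss-201 led by reads. For Acly it was Acly-201 and Acly-203, and for Hadhb it was Hadhb-203 and Hadhb-201, all coding. For Sc5d the libraries had the same leader by TPM, Sc5d-202, while the longer Sc5d-201 led by reads. Over the 35 genes, the median noncoding share was 5.73% of TPM and 5.28% of reads. As the mean of the libraries, more than 50% of TPM was noncoding for Hadha, Lss, Srebf2 and Fasn, and more than 50% of reads for Hadha only. Lss was next by reads, with 50.0123% in library 1 and 49.2% in library 2.

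**Figure D3:**
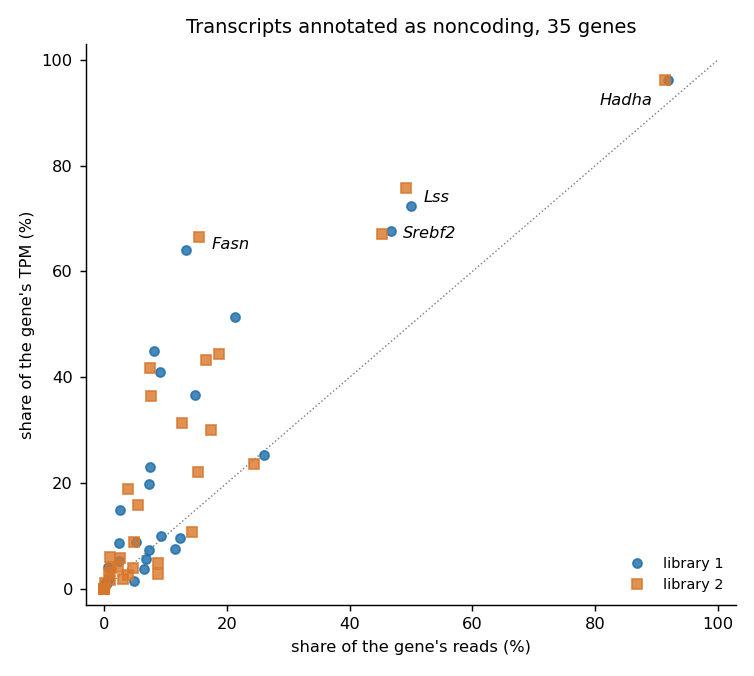
Share of each gene's TPM (vertical axis, percent) against share of its reads (horizontal axis, percent) that fell on transcripts annotated as noncoding, for 35 genes in library 1 (circles) and library 2 (squares); the dotted line marks equal shares. The median was 5.73% of TPM and 5.28% of reads. Hadha is above 90 on both axes, and Fasn, Srebf2 and Lss lie well above the line. Others also lie well above it, among them Srebf1 (mean 43.4% of TPM and 7.82% of reads), Fdft1 (47.4% and 19.0%) and Cyp51 (38.8% and 8.41%).

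The libraries were compared gene by gene with an exact two-sided binomial test on rounded estimated reads against library 1's share of all gene reads, with Benjamini-Hochberg adjustment at 0.05. This compares technical libraries and not conditions. Of 42 genes tested, 17 (40.5%) passed, against 24.3% of 17271 genes. Higher in library 1 were 4 of them, against 11.6% of all genes tested in that direction, and higher in library 2 were 13, against 12.7%. At 300 to 5000 summed reads, 13 of 36 genes passed (36.1%), against 30.5% of 7117 protein-coding genes, so the share was closer to that of genes of like depth. All but Nr1h3 of the 17 differed by less than 1.5-fold in reads.

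Those higher in library 1 were Nr1h3, Fabp5, Sc5d and Hmgcs1, with log2 ratios of library 1 over library 2 of 3.31, 0.31, 0.28 and 0.23. Those higher in library 2 included 5 of 7 beta-oxidation genes (Cpt1a, Cpt2, Acadvl, Hadha and Hadhb), against 12.7% of all genes tested. The log2 ratios of these 5 ran from -0.43 to -0.16. Of 19 other beta-oxidation genes tested, 2 were called higher in library 2 and 2 in library 1. Also higher in library 2 was Lss at -0.51 with a counting SE of 0.13, the largest of that direction. The rest were Dhcr7, Fdft1, Abcg1, Srebf1, Acly, Scd2 and Elovl5, between -0.36 and -0.13. Srebf1 was not called with DESeq2 size factors or without the minimum of 10 reads. On the M4 reads Acly, Dhcr7, Hadha, Lss and Sc5d were called, and the other 12 of the 17 were not, Nr1h3 and Abcg1 among them. Under an edgeR exact test with a dispersion of 0.01, which allows for variation beyond counting, only Nr1h3 remained of the 17 and 491 of 17271 genes were called in all. For 7 genes (Srebf2, Insig2, Mvk, Pmvk, Msmo1, Fasn and Acadm) TPM and reads differed between libraries in opposite directions, none of them called.

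**Figure D4:**
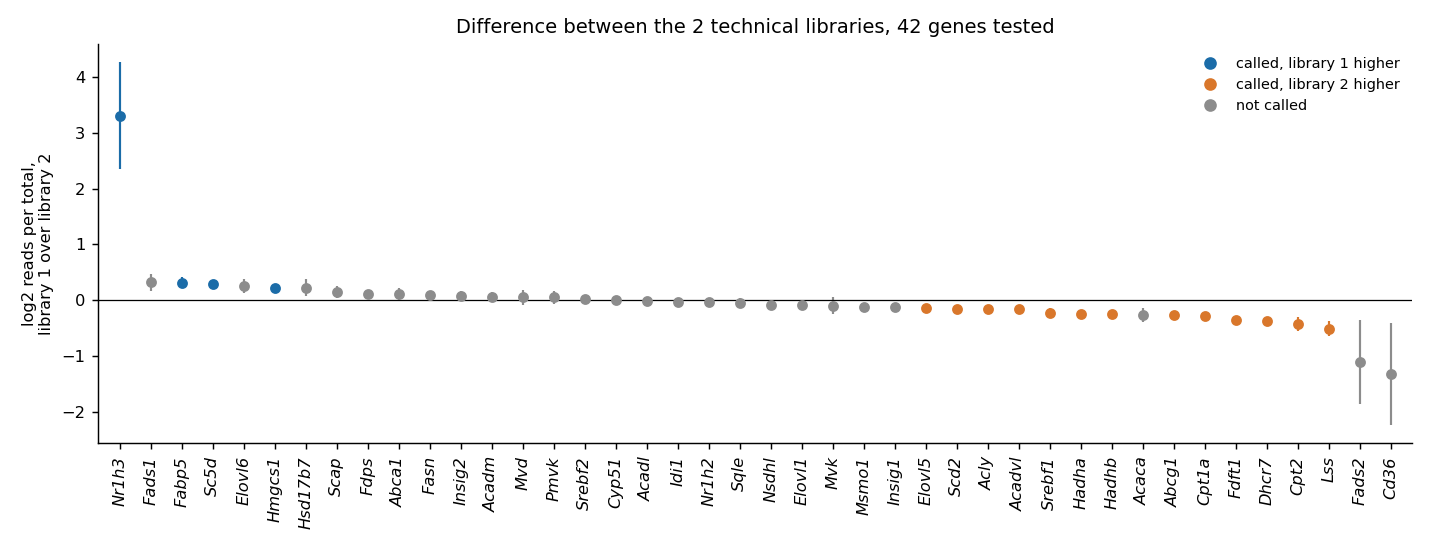
Log2 ratio of reads per total reads, library 1 over library 2, for the 42 genes tested, ordered from high to low, with bars of 1 counting SE; blue and orange mark genes called higher in library 1 and in library 2, grey those not called. Nr1h3 stands apart at 3.31, and all other called genes lie between -0.51 and 0.31.

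The deposited M4 table gave another count of the same libraries, with 3478224 reads in library 1 and 3475360 in library 2. Over the 40 genes with 20 M21 reads or more and an M4 row, the M4 reads were a median of 45.4% of the M21 reads, against 40.3% over 11236 protein-coding genes. They were under 10% for 4 of the 40, against 11.2% of protein-coding genes. These were Idi1 at 0.52%, Abcg1 at 4.64%, Hadhb at 5.01% and Insig1 at 5.78%. Idi1 had 3 and 8 M4 reads, against 1056 and 1043 in M21. Abcg1 had 274 and 286, against 5567 and 6510, and Insig1 48 and 64, against 941 and 998. Among protein-coding genes the median was 40.3%, 44.1%, 34.7% and 5.05% for M21 read sums of 20 to 200, 200 to 2000, 2000 to 20000, and 20000 or more, so a low share was common at the highest level and less so at the level of Idi1 or Insig1.

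These 4 genes differed in how far their reads could belong to another gene. Of the 50-base windows of the transcripts of Idi1, 25.3% also occur in another gene, mainly the processed pseudogene Gm13502, which was assigned 75.7 reads in library 1 and 69.8 in library 2. For Hadhb the share was 19.7%, mainly with the processed pseudogene Gm13910, at 127 and 153 reads. For Abcg1 and Insig1 the share was 0.18% and 2.17%, so shared windows were few where the M4 reads were as low. Over 5% of windows were shared in 9 of the 43 genes, including Acaca (30.4%, mainly Gm5182), Fdft1 (26.5%, mainly Ctsb on the opposite strand) and Fdps (26.2%, mainly Gm43738). How such reads were divided makes the levels of these 9 uncertain, by an amount that was not measured. Ctsb was assigned 8011 and 8838 reads beside 859 and 1062 for Fdft1, Gm5182 had 4.60 and 5.73 beside 244 and 284 for Acaca, and Gm43738 had 0 and 6.90 beside 934 and 835 for Fdps. The part of shared windows in the M4 values was not tested.

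**Figure D5:**
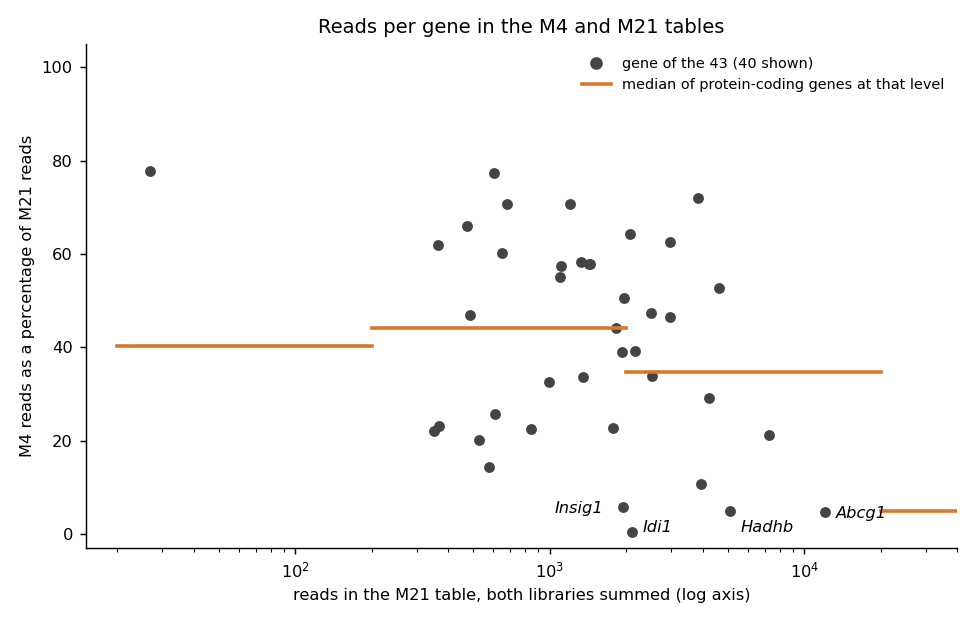
M4 reads as a percentage of M21 reads against the M21 reads of both libraries summed (log axis), for 40 of the 43 genes, with lines for the median of protein-coding genes at each level. Idi1, Abcg1, Hadhb and Insig1 lie under 10%, and the other genes are spread on both sides of the lines.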

How the data were processed

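The 43 genes, their role lists, the other pathway genes and the markers were chosen with earlier results of these data known. Per the labels, polyadenylated RNA of 1 biological sample was sheared to 100 to 300 bases and sequenced as 2 technical libraries. The deposited gene and transcript tables use mm10 with GENCODE M21 and hold, per the file headers, an expected count (an estimate of reads that need not be whole), TPM, FPKM and, for transcripts, the percent of the gene's TPM. The authors also deposited whole-number counts on GENCODE M4. The sources used here name neither the quantifier nor the M4 counter.

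Expected counts were rounded to whole numbers. Rows naming no gene, 0.142% of reads in library 1 and 0.186% in library 2, were left out of library sizes. Genes with a summed count of 10 or more were tested by the exact binomial test. edgeR's quasi-likelihood test could not be fitted with 1 group. Log2 ratios of reads add 0.5 to each count. Levels use log2(TPM + 1). Intervals are exact 95% binomial intervals and, like the floor of 3 reads, cover counting error only.

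For the library comparison, libraries were simulated with counting error alone over 17339 genes. Changes of 1.25-fold were called in 52% of changed genes, of 1.5-fold in 68%, of 2-fold in 82% and of 4-fold in 100%. Of 17139 unchanged genes 6 were called. The simulation held no variation beyond counting, so these rates need not hold for the deposited libraries, where 24.3% of genes tested were called. By the rule for naming, any of the 43 genes could appear, including the extremes of each role and both genes of each pair, and from the other lists the extremes and those without reads. R 4.3.3 with edgeR 4.0.16 and DESeq2 1.42.0 gave the alternative scalings. Tables were joined and tested in Python 3.11.15 with scipy 1.17.1, numpy 2.4.6, pandas 2.3.3 and bedtools 2.31.1. Coordinates are 1-based. A few further pathway genes are not reported here.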

Additional observations from a re-analysis of the deposited data

How the results depend on the processing

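For 24 values, 113 alternatives were computed, of which 67 kept the value within the spread of the libraries or, for counts, within 1.5 times, 40 moved it and 6 reversed its direction. Leaving out 1 of 2 libraries always keeps a median or ratio within that spread. Those alternatives could therefore only show a reversal, and their place among the 67 is no sign of stability. The counts of 39 genes at 1 TPM or more and 32 at 10 TPM or more stayed within the wide band of 1.5 times, at 38 to 40 and 29 to 33. With a pseudocount of 0.1 the median log2 level was 4.64 for sterol regulators, 3.17 for liver X receptors and efflux, 3.80 for fatty acid synthesis and 1.71 for uptake. With FPKM these 4 medians were 4.40, 3.16, 3.62 and 2.56, and those of sterol synthesis, beta-oxidation and all 43 genes were 4.64, 4.76 and 4.50. With only genes at 1 TPM or more they were 5.02 for receptors and efflux, 4.76 for fatty acid synthesis, 5.18 for uptake and 4.95 for all. On M4 reads per length they were 5.59 for regulators, 6.14 for sterol synthesis, 3.56 for fatty acid synthesis, 3.01 for uptake, 6.51 for beta-oxidation and 5.75 for all.

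On M4 reads the log2 ratio reversed to -0.30 for Srebf2 over Srebf1, -2.30 for Insig1 over Insig2 and 3.00 for Hadha over Hadhb. It moved to 2.68 for Abcg1 over Abca1, 4.63 for Scd2 over Scd1, 5.31 for Elovl1 and 4.39 for Elovl5 over Elovl6, 6.57 for Fabp5 over Cd36, -1.25 for Cpt1a over Cpt2 and 1.88 for Acadvl over Acadm. Over the longest coding transcript it reversed to 0.29 for Cpt1a over Cpt2. It moved to 0.96 for Insig1 over Insig2, 9.18 for Scd2 over Scd1, 4.12 for Elovl1 and 4.78 for Elovl5 over Elovl6, and 8.25 for Fabp5 over Cd36. It also moved to 1.72 for Acadvl and 0.50 for Acadl over Acadm, and to -1.77 for Hadha over Hadhb. With 1 library left out, Cpt1a over Cpt2 ranged from -0.47 to 0.37 and Acadl over Acadm from -0.012 to 0.20. The cause was not tested for any of these.

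The edgeR exact test at a dispersion of 0.01 called 1 of the 43 genes and 491 genes in all, and M4 reads gave 5 and 1092. With TMM, DESeq2 size factors, no filter or a minimum of 100 reads, 16 or 17 of the 43 and 3583 to 4233 genes in all were called. No paired analysis was possible because there is 1 group. Leaving out a library ends the comparison between libraries. The 1 biological sample sets the main limit, since no value covers variation between animals.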
